A study of Mus musculus with 16 samples.

Results

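The genes described here encode chromatin remodelling enzymes and proteins with a bromodomain, together with the subunits and relatives that share their names. They were chosen by symbol from the array annotation: all genes whose symbol starts with Smarc or Ino80, or with Arid, Chd or Brd and a digit, plus Pbrm1, Actl6a, Ss18 and Bptf where the annotation matched them to a probe set of their own. The rule found 42 of the 17097 annotated genes, and no measured value entered it. Where a gene had several probe sets, the one with the highest average over the 16 arrays was used. Of the 42 members, 35 were tested among 8139 genes. All 35 lay above a log2 value of 5 on all 16 arrays, so none entered the test through 1 group alone.

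Expression had been measured on Affymetrix arrays in sorted CD4 T cells of the spleen, from NOD/LtJ mice aged 6 weeks, a strain that develops autoimmune diabetes. The series title asks how a loss of epigenetic control by Foxp3 relates to insufficient regulatory T cells. The 4 groups held 4 arrays each. KI Treg and KI Tconv were regulatory and conventional T cells of mice with the knock-in allele Foxp3tm2Ayr, named Foxp3gfp in the sample labels. WT Treg and WT Tconv came from mice called wild type that carried the transgene Tg(Foxp3-EGFP/cre)1aJbs, in which Foxp3 sequences drive a protein that joins EGFP to Cre. Both genotypes thus carried a GFP reporter, and no group lacked one. No further treatment was given. Whether each array had its own mouse is not stated, and p-values therefore cover the spread among arrays, which may be technical. The sort described for every sample, Tregs included, selected cells without GFP, and the gate of the Tregs is therefore unclear.

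Remodelling enzymes use ATP to slide, evict or exchange nucleosomes, and so set which stretches of DNA are open to transcription factors. The main families are SWI/SNF, ISWI, CHD and INO80, each built around an ATPase of the SNF2 type and a set of subunits that target or tune it. Bromodomains bind acetylated lysines on histones, and ARID domains bind DNA. In Tregs, Foxp3 acts in large protein assemblies that include chromatin regulators of several of these families.

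The sorted cells carried the markers of their labels. Foxp3, the defining factor of Tregs, averaged 9.76 ± 0.29 (log2) in KI Treg against 3.69 ± 0.09 in KI Tconv, and 9.86 ± 0.20 in WT Treg against 4.63 ± 0.32 in WT Tconv (SD, n = 4 each). All 5 Treg markers were higher in Tregs of both genotypes. Foxp3 and Ikzf2 were lower in KI Tconv than in WT Tconv, and Ctla4 was higher in KI Treg than in WT Treg. The Foxp3 difference in Tconv was -0.93 (adjusted p = 0.0104 by limma). With the 3 array number series, described below, as a block it was -1.09 and did not pass (adjusted p = 0.372). Of the markers of other cells, Cd8a and Cd79b were higher in Tregs of both genotypes and the NK cell pair split, with 1 higher and 1 lower. Cd68 of the monocyte and macrophage list was higher in KI Treg, with list means of up to 6.12 in KI Treg against up to 4.74 in KI Tconv, and up to 6.30 in WT Treg against up to 4.93 in WT Tconv. The CD8 list averaged 5.85 to 6.26 in KI Treg against 5.18 to 5.61 in KI Tconv, and 6.11 to 6.45 in WT Treg against 4.80 to 5.19 in WT Tconv. The 4 dendritic cell markers on the array stayed at or under 5 on every array. The neutrophil list averaged 5.31 to 8.70 in KI Treg against 4.08 to 7.55 in KI Tconv. In WT cells it averaged 3.57 to 8.45 in WT Treg against 4.80 to 7.81 in WT Tconv. It thus varied widely among arrays of the same group, and 0 of its 4 tested genes passed in any comparison. All 6 proliferation markers were higher in KI Treg, with list means of 7.03 to 7.83 against 5.21 to 6.16 in KI Tconv. In WT cells 1 of 6 was higher, with list means of 5.85 to 7.17 in WT Treg against 5.43 to 6.57 in WT Tconv. The part of these markers in the results below was not tested. Array numbers in the sample titles form 3 series: 4 to 9 for WT, 13 to 23 for KI, and 24 to 27 with 1 array of each group. The last are numbered replicate 4 of each group here. On the third principal component of the tested genes, with 7.17% of the variance, KI arrays 13 to 23 scored 3.93 to 21.0, the KI arrays of the last series -8.17 and -2.36, and the WT arrays -12.4 to 1.61. The labels do not say what the numbers stand for.

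Between Tregs and Tconv, individual remodelling genes changed while the group as a whole did not move one way. In KI cells 15 of 35 members passed the test (7 higher and 8 lower in Tregs), which is 42.9% against 41.1% of all tested genes (21.2% higher, 19.9% lower). In WT cells 11 of 35 passed (5 higher and 6 lower), or 31.4% against 34.6% of all tested genes (16.7% higher, 17.9% lower). These shares lie near those of all genes, so the counts are no result about the members. The test was limma with Benjamini-Hochberg adjustment over the 8139 genes and a threshold of 0.05 on the adjusted p. The median log2 difference of the members was -0.05 in KI cells and -0.01 in WT cells, against -0.02 and -0.03 over all genes. The arrays of Tregs and Tconv did not overlap for 10 members in KI cells (2 higher, 8 lower), against 34.7% of all genes (17.7% higher, 17.0% lower). They did not overlap for 14 members in WT cells (6 higher, 8 lower), against 37.2% of all genes (17.6% higher, 19.6% lower). At an unadjusted p under 0.05 the counts were 19 of 35 in KI cells and 12 of 35 in WT cells, against 48.5% and 43.9% of all genes. In these sorted bulk samples, fewer cells of a type and less RNA per cell cannot be told apart.

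Between the genotypes, 0 of 35 members passed in either cell type. The same counts over all genes were 2.84% for KI Treg against WT Treg and 0.135% for KI Tconv against WT Tconv. The cell type differences of KI and WT cells rest on different arrays. Their calls came from the same fit with a shared estimate of spread, so they are not independent. Of the members, 10 passed in both genotypes, all in the same direction, which is 66.7% of the KI calls and 90.9% of the WT calls. Over all tested genes those shares were 69.2% and 82.1%. The 10 are 28.6% of the tested members, and 28.4% of all tested genes passed in both. The plot of cell type differences by family shows the 6 that fell and the 4 that rose.

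**Figure D1:**
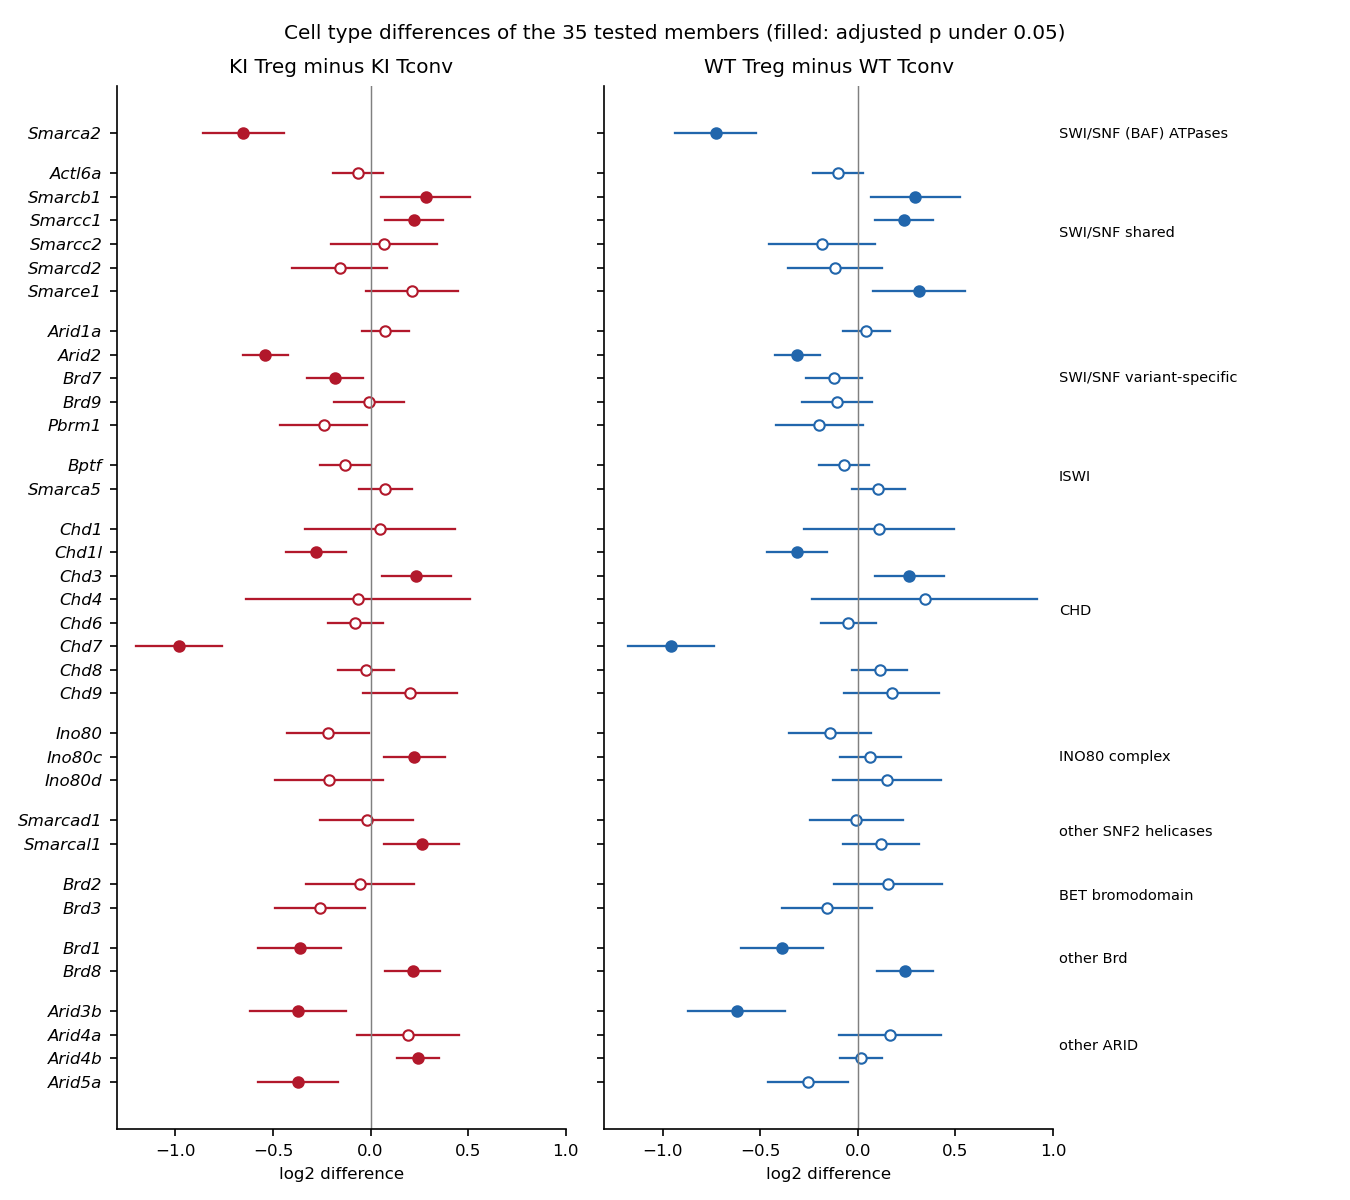
Log2 difference of Tregs minus Tconv for the 35 tested members, in KI cells (left panel) and WT cells (right panel), grouped by family. Points are limma estimates, lines are 95% confidence intervals, and filled points have an adjusted p under 0.05. Chd7 (-0.98 in KI cells and -0.96 in WT cells) and Smarca2 (-0.65 and -0.73) lie farthest to the left.

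Smarca2, one of the alternative ATPases at the core of SWI/SNF complexes, was the tested member among these ATPases. It fell in Tregs of both genotypes. It measured 8.49, 8.40, 8.25 and 8.36 in KI Treg, against 9.06, 9.08, 9.05 and 8.90 in KI Tconv. In WT mice it measured 8.00, 8.41, 8.39 and 8.47 in WT Treg, against 8.96, 9.21, 9.13 and 8.89 in WT Tconv. Every Treg array lay below every Tconv array of its genotype. The difference was -0.65 (SE 0.0979, adjusted p = 3.01e-05 by limma) in KI cells and -0.73 (SE 0.0979, adjusted p = 1.03e-05) in WT cells, or 1.57-fold and 1.66-fold lower. A second probe set of Smarca2 gave -0.60 in KI cells (adjusted p = 0.0470 in a limma fit over all probe sets of 1 gene) and -0.19 in WT cells (adjusted p = 0.588), so the WT call rests on 1 of 2 probe sets.

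The subunits shared by several SWI/SNF variants gave rises or no call. Non-canonical BAF lacks Smarcb1 and Smarce1. Of the 6 tested, 2 rose in KI Treg and 3 in WT Treg. Over all genes, 21.2% rose in KI Treg and 16.7% in WT Treg. Smarcb1, a core subunit known as a tumour suppressor, measured 8.04, 8.28, 8.07 and 7.71 in KI Treg against 7.82, 7.81, 7.76 and 7.59 in KI Tconv. It measured 7.93, 7.84, 7.86 and 7.72 in WT Treg against 7.30, 7.60, 7.65 and 7.62 in WT Tconv. The KI groups overlapped through replicate 4 of KI Treg, and the WT groups did not overlap. The difference was 0.28 (SE 0.108, adjusted p = 0.0444 by limma) in KI cells and 0.29 (SE 0.108, adjusted p = 0.0415) in WT cells, close to the threshold. The KI call was lost under 5 alternatives (adjusted p of 0.0520 to 0.141): no filter, the mean of probe sets, the most variable probe set, arrays centred on their medians, and only the groups compared. The WT call was lost under the first 3 of these (0.0502 to 0.173). The most variable probe set was the one already used, so the differences were the same there. The other probe set, which entered the mean, had group means under 5. The KI call was also lost without any 1 of 12 arrays, with adjusted p of 0.0501 to 0.155 there. Those were KI Treg 1, 2 and 3, all 4 of KI Tconv, WT Treg 1, 2 and 3, and WT Tconv 2 and 4. The WT call was lost without any of 7 arrays (0.0507 to 0.145), which were WT Treg 1, 2 and 3, WT Tconv 1 and 2, KI Treg 1 and KI Tconv 3.

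Smarcc1, a scaffold subunit on which the complex is assembled, measured 9.08, 9.07, 9.14 and 9.15 in KI Treg against 8.92, 8.89, 8.73 and 8.99 in KI Tconv. In WT mice it measured 9.15, 9.20, 9.04 and 8.99 in WT Treg against 8.76, 8.80, 8.97 and 8.90 in WT Tconv. Neither pair of groups overlapped. The difference was 0.22 (adjusted p = 0.0169 by limma) in KI cells and 0.24 (adjusted p = 0.0137) in WT cells. The KI call was lost without KI Tconv 3 (0.17, adjusted p = 0.0706) and the WT call without WT Treg 2 (0.20, adjusted p = 0.0519). A second probe set of Smarcc1, with a larger spread, gave -0.15 in KI cells and 0.62 in WT cells, neither past the threshold. The mean of both probe sets did not pass in either genotype (adjusted p = 0.888 in KI cells and 0.0985 in WT cells). Smarce1, a subunit with a DNA-binding HMG domain, measured 9.16, 9.31, 9.14 and 9.03 in KI Treg against 9.21, 8.93, 8.84 and 8.80 in KI Tconv. It measured 9.08, 9.15, 9.07 and 9.03 in WT Treg against 8.59, 8.50, 9.00 and 8.99 in WT Tconv, with no overlap. Its difference was 0.21 (95% confidence interval -0.02 to 0.45, adjusted p = 0.138) in KI cells and 0.31 (SE 0.111, adjusted p = 0.0365) in WT cells. Within the last number series the WT difference was 0.03, and the call was lost without any of WT Treg 1, 2 and 3 and WT Tconv 1 and 2 (0.22 to 0.32, adjusted p of 0.0656 to 0.139). It was lost as well with no filter, the mean of probe sets or the most variable one (adjusted p of 0.0549 to 0.0612). That most variable probe set gave a rise of 0.36 in WT cells. A further probe set of Smarce1, which entered the mean, had group means under 5. Smarcc2, Smarcd2 and Actl6a did not pass in either genotype. Their differences ran from -0.18, for Smarcc2 in WT cells, to 0.07, for Smarcc2 in KI cells.

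The promoters of the ATPase that fell and of the core subunits that rose in both genotypes are shown because these members moved in opposite directions. The sequences are from RefSeq on GRCm38.p6, on the strand of the gene, from 250 bases before to 50 bases after the start. The table held an entry for 32 of the 42 members, with 42 promoters in all. The 3 promoters lie at chr19:26604910-26605209 (plus strand) for Smarca2, chr10:75921565-75921864 (minus strand) for Smarcb1 and chr9:110131774-110132073 (plus strand) for Smarcc1. Capitals mark matches to an ETS motif, CCGGAAG or its reverse complement CTTCCGG.
Smarca2: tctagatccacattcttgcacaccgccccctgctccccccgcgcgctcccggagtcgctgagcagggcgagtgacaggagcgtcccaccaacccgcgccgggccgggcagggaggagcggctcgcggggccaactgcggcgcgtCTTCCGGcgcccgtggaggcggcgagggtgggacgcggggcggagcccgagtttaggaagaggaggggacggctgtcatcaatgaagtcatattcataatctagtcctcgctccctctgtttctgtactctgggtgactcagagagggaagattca
Smarcb1: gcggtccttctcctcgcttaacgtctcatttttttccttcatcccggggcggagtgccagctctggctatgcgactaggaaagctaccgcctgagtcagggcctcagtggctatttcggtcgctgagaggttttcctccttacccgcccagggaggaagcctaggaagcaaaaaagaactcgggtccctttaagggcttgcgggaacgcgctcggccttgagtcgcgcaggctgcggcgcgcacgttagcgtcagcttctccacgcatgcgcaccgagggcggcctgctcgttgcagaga
Smarcc1: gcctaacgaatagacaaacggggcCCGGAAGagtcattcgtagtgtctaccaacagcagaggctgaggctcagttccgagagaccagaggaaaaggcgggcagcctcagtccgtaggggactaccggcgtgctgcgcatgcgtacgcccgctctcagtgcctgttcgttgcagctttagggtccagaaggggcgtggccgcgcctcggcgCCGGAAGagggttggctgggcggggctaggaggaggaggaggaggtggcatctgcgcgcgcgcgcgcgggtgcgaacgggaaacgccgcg
The Smarca2 promoter had 1 match, at base 145, the Smarcc1 promoter had 2, at bases 25 and 211, and the Smarcb1 window had none. Over both strands the motif occurred in 8 of the 42 member promoters (19.0%) and in 8.86% of all 32851 promoters of this length. A forkhead motif, GTAAACA, occurred in 1 of 42 member promoters (2.38%) and in 3.65% of all, and a RUNX motif, TGTGGTT, in 1 of 42 (2.38%) and in 5.27% of all. No motif contains another of the 3. The member promoters held a median of 25.5 CG dinucleotides, against 7 in all promoters. A match is a description of these letters and shows no binding.

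Of 5 tested subunits that set 1 SWI/SNF variant apart from another, 2 fell in KI Treg and 1 in WT Treg, against 19.9% and 17.9% of all genes that fell. Both belong to PBAF, the variant with a polybromo subunit, whose polybromo gene did not pass. Arid2, the ARID subunit of PBAF, measured 10.27, 10.29, 10.50 and 10.28 in KI Treg against 10.83, 10.90, 10.91 and 10.86 in KI Tconv. The WT values were 10.58, 10.52, 10.51 and 10.51 in WT Treg against 10.79, 10.85, 10.92 and 10.79 in WT Tconv. The Treg arrays lay below the Tconv arrays in both genotypes with no overlap, and the spread within groups was small. The difference was -0.54 (SE 0.0550, adjusted p = 2.69e-07 by limma) in KI cells and -0.31 (SE 0.0550, adjusted p = 0.00022) in WT cells. The other tested probe sets of Arid2 gave -0.48 and -0.45 in KI cells and -0.32 and -0.38 in WT cells, all past the threshold.

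Brd7, a bromodomain subunit of PBAF, measured 8.49, 8.35, 8.55 and 8.31 in KI Treg against 8.63, 8.60, 8.62 and 8.58 in KI Tconv, with no overlap. In WT mice it measured 8.34, 8.44, 8.41 and 8.34 in WT Treg against 8.41, 8.53, 8.63 and 8.45 in WT Tconv, with overlap. The difference was -0.18 (adjusted p = 0.0402 by limma) in KI cells and -0.12 in WT cells, which did not pass. The KI call was lost without any of KI Treg 2 and 4 and KI Tconv 1, 2 and 3 (-0.19 to -0.15, adjusted p of 0.0709 to 0.110). It was lost as well with no filter, with only the groups compared and without arrays 24 to 27 (adjusted p of 0.0777 to 0.130). Pbrm1, the polybromo subunit itself, gave -0.24 (95% confidence interval -0.46 to -0.02, adjusted p = 0.0791) in KI cells and -0.20 (-0.42 to 0.02, adjusted p = 0.162) in WT cells. One of its other probe sets gave -0.37 in WT cells (adjusted p = 0.000352) and -0.09 in KI cells. Arid1a, the ARID subunit of canonical BAF, gave 0.08 and 0.04, and Brd9, the bromodomain subunit of non-canonical BAF, -0.01 and -0.11, in KI and WT cells. None of these passed.

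In the ISWI family, 0 of 2 tested members passed by limma in either genotype, against 41.1% and 34.6% of all genes in KI and WT cells. Smarca5, the ATPase of most ISWI complexes, gave 0.08 in KI cells and 0.11 in WT cells. Bptf, the bromodomain subunit of the NURF complex, gave -0.13 and -0.07, and at an unadjusted p under 0.05 it was the 1 ISWI member counted, in KI cells (adjusted p = 0.100). The second probe set of Bptf gave -0.17 in KI cells (adjusted p = 0.0174 in the fit over all probe sets).

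The CHD family held the member with the largest cell type difference of all 35. Chd7, a remodeller of enhancers whose human gene is mutated in CHARGE syndrome, measured 8.03, 8.10, 7.62 and 7.88 in KI Treg against 8.79, 8.76, 8.96 and 9.05 in KI Tconv. The WT values were 7.67, 7.87, 7.95 and 8.08 in WT Treg against 8.93, 8.88, 8.79 and 8.81 in WT Tconv. The groups lay far apart in both genotypes. The difference was -0.98 (SE 0.105, adjusted p = 4.94e-07 by limma), or 1.97-fold lower, in KI cells and -0.96 (SE 0.105, adjusted p = 8.74e-07), or 1.94-fold lower, in WT cells. A second probe set of Chd7 gave larger falls, -2.11 (SE 0.130) in KI cells and -1.70 (SE 0.130) in WT cells. The direction was thus shared by both probe sets, and the size depended on the probe set.

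Chd1l, a remodeller recruited to sites of DNA damage by poly(ADP-ribose), measured 8.60, 8.79, 8.65 and 8.40 in KI Treg against 8.84, 8.86, 8.91 and 8.93 in KI Tconv. It measured 8.56, 8.56, 8.44 and 8.50 in WT Treg against 8.85, 8.86, 8.86 and 8.72 in WT Tconv. Neither pair of groups overlapped. It fell by 0.28 (SE 0.0732, adjusted p = 0.00546 by limma) in KI Treg and by 0.31 (SE 0.0732, adjusted p = 0.00282) in WT Treg. Chd3, an ATPase of the deacetylase complex NuRD, was the CHD gene that rose. It measured 8.62, 8.84, 8.64 and 8.41 in KI Treg against 8.29, 8.43, 8.52 and 8.32 in KI Tconv, with overlap through replicate 4 of KI Treg. It measured 8.49, 8.46, 8.56 and 8.45 in WT Treg against 8.18, 8.30, 8.31 and 8.13 in WT Tconv, without overlap. The difference was 0.24 (adjusted p = 0.0320) in KI cells and 0.26 (adjusted p = 0.0210) in WT cells. The KI call was lost without any of KI Treg 1, 2 and 3 and KI Tconv 1 and 4 (0.16 to 0.24, adjusted p of 0.0580 to 0.117). It was lost as well with no filter, with arrays centred on their medians and with only the groups compared (adjusted p of 0.0533 to 0.0922). The WT call was lost without any of WT Treg 3 and WT Tconv 1 and 4 (0.23 to 0.25, adjusted p of 0.0516 to 0.0628).

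The other 5 CHD genes, Chd1, Chd4, Chd6, Chd8 and Chd9, did not pass in either genotype. Chd4, the other NuRD ATPase, had the widest spread of all members, with a within-group SD of 0.459 against a median of 0.138 over members. It measured 8.45, 7.90, 8.46 and 8.80 in KI Treg, 8.84, 8.52, 8.45 and 8.05 in KI Tconv, 8.96, 8.42, 8.56 and 8.59 in WT Treg, and 7.26, 8.26, 8.82 and 8.82 in WT Tconv. Its interval ran from -0.64 to 0.51 in KI cells and from -0.23 to 0.92 in WT cells, the least precise estimates among the members. Chd1, which binds methylated histone tails, had the second largest SD, 0.298.

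**Figure D2:**
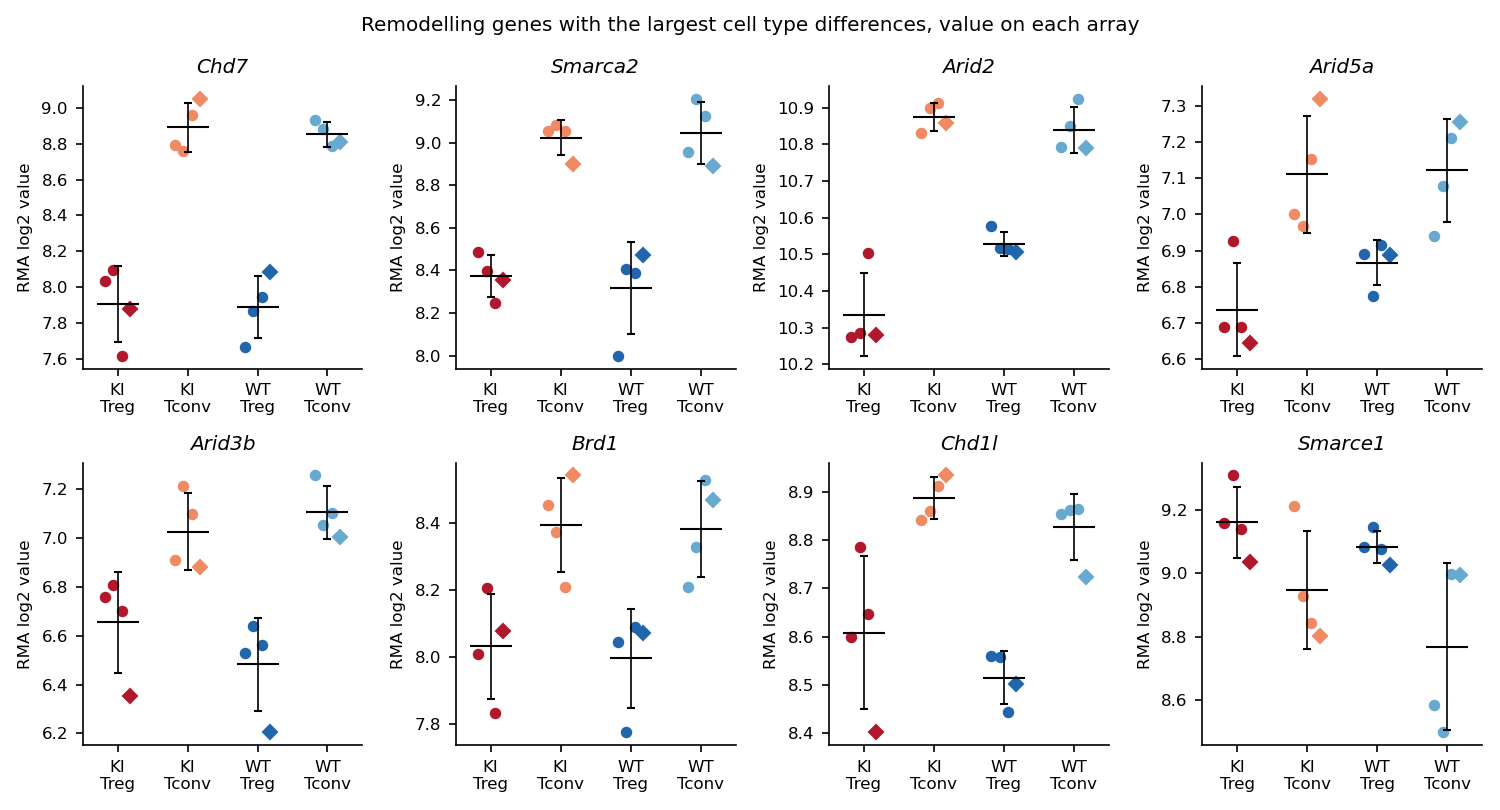
RMA log2 value on each array for the 8 members with the largest called cell type differences, by group (KI Treg, KI Tconv, WT Treg, WT Tconv). Bars are group means, lines are 1 SD (n = 4), and diamonds are arrays 24 to 27. Chd7 and Smarca2 show the widest gaps between Tregs and Tconv, while Smarce1 in KI cells overlaps.

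The INO80 complex moves nucleosomes and exchanges histone variants. Of its 3 tested members, 1 rose in KI Treg and 0 passed in WT cells by limma (0 at an unadjusted p under 0.05). Over all genes, 21.2% rose in KI Treg and 34.6% passed in WT cells. Ino80c, a small subunit of the complex, measured 8.02, 7.94, 7.87 and 7.84 in KI Treg against 7.85, 7.72, 7.65 and 7.55 in KI Tconv. In WT mice it measured 7.84, 7.92, 7.82 and 7.78 in WT Treg against 7.80, 7.69, 7.82 and 7.80 in WT Tconv. The KI groups overlapped at their edges. The difference was 0.22 (adjusted p = 0.0215 by limma) in KI cells and 0.06 in WT cells, and the difference between these did not pass either. Leaving out any of KI Treg 1 and KI Tconv 3 and 4 ended the KI call (0.18 to 0.21, adjusted p of 0.0564 to 0.0756). So did fitting only the groups compared or leaving out arrays 24 to 27 (adjusted p of 0.0780 and 0.0627). Ino80, the ATPase, gave -0.22 in KI cells (adjusted p = 0.0904) and -0.14 in WT cells. Ino80d, another subunit, gave -0.21 in KI cells and 0.15 in WT cells. Its other probe sets gave 0.20 and 0.30 in KI cells and 0.31 and 0.71 in WT cells, the last with an adjusted p of 0.0449.

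Of the SNF2 helicases outside these complexes, Smarcal1, which rewinds DNA at stalled replication forks, rose in KI Treg. It measured 7.75, 7.78, 7.64 and 7.32 in KI Treg against 7.37, 7.35, 7.29 and 7.43 in KI Tconv. In WT mice it measured 7.40, 7.38, 7.48 and 7.55 in WT Treg against 7.36, 7.31, 7.23 and 7.43 in WT Tconv. Replicate 4 of KI Treg lay within the range of KI Tconv and the other KI Treg arrays lay above it. The difference was 0.26 (adjusted p = 0.0303 by limma) in KI cells and 0.12 in WT cells. Within the last number series it was -0.11 in KI cells, and the call was lost without any of KI Treg 1, 2 and 3 and KI Tconv 2 and 3 (0.21 to 0.26, adjusted p of 0.0604 to 0.0980). With the mean of its probe sets, of which the other 2 had group means under 5, the difference was 0.00386 (adjusted p = 0.977). The call was also lost with no filter (adjusted p = 0.0579) and with only the groups compared (0.0898). All 6 proliferation markers were higher in KI Treg. So were 7 of 35 members, Smarcal1 among them, against 21.2% of all genes, and 8 members were lower. In WT Treg 1 of 6 proliferation markers was higher, and 5 of 35 members were, against 16.7% of all genes. A relation between the markers and the members was not tested. Smarcad1, which acts at heterochromatin and in DNA repair, gave -0.02 in KI cells and -0.01 in WT cells.

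The BET genes have paired bromodomains that bind acetylated histones at active genes. They gave no call by limma among the 2 tested in the fit without a block. Over all genes, 41.1% passed in KI cells and 34.6% in WT cells. Brd2 gave -0.05 in KI cells and 0.15 in WT cells. Brd3 gave -0.26 in KI cells (95% confidence interval -0.49 to -0.03, adjusted p = 0.0668) and -0.16 in WT cells (-0.39 to 0.07), and it was the 1 BET gene under an unadjusted p of 0.05, in KI cells. With the array number series as a block the same KI difference passed (adjusted p = 0.0333 with 3 series and 0.0413 with 2).

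The 2 tested Brd genes outside BET and SWI/SNF both passed by limma in each genotype. Over all genes, 41.1% passed in KI cells and 34.6% in WT cells. With the probe sets used, Brd1 fell and Brd8 rose in Tregs. Brd1, a scaffold of histone acetyltransferase complexes, measured 8.01, 8.21, 7.83 and 8.08 in KI Treg against 8.45, 8.37, 8.21 and 8.54 in KI Tconv. It measured 8.05, 7.78, 8.09 and 8.07 in WT Treg against 8.21, 8.33, 8.53 and 8.47 in WT Tconv. The KI groups nearly touched, at 8.21, and the WT groups did not overlap. It fell by 0.36 (SE 0.101, adjusted p = 0.0076 by limma) in KI Treg and by 0.39 (SE 0.101, adjusted p = 0.00559) in WT Treg. With the mean of its probe sets, 1 of which lay under the minimum, the WT difference was -0.13 and did not pass (adjusted p = 0.377). Brd8, a subunit of the TIP60 acetyltransferase complex, measured 8.31, 8.28, 8.22 and 8.18 in KI Treg against 8.19, 7.94, 8.01 and 7.98 in KI Tconv, which overlapped at their edges. It measured 8.15, 8.30, 8.18 and 8.19 in WT Treg against 7.97, 7.92, 8.00 and 7.96 in WT Tconv, without overlap. The difference was 0.22 (adjusted p = 0.0155) in KI cells and 0.24 (adjusted p = 0.00901) in WT cells. The KI call was lost without KI Treg 1 or KI Tconv 2 (0.19 to 0.20, adjusted p of at most 0.0554). The other probe sets of Brd8 gave -0.15 and 0.19 in KI cells and 0.14 and 0.07 in WT cells, none past the threshold. The mean of the probe sets did not pass in either genotype (adjusted p = 0.404 in KI cells and 0.142 in WT cells), nor did the KI difference with only the groups compared (0.0631).

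The ARID genes outside SWI/SNF held calls in both directions. Arid3b, a DNA-binding factor of the Bright family, measured 6.76, 6.81, 6.70 and 6.35 in KI Treg against 6.91, 7.21, 7.10 and 6.88 in KI Tconv. It measured 6.53, 6.64, 6.56 and 6.20 in WT Treg against 7.26, 7.05, 7.10 and 7.00 in WT Tconv. Neither pair of groups overlapped. The difference was -0.37 (SE 0.118, adjusted p = 0.0175 by limma) in KI cells and -0.62 (SE 0.118, adjusted p = 0.000427) in WT cells. Leaving out KI Tconv 2 or KI Treg 4 ended the KI call (-0.31 to -0.27, adjusted p of 0.0614 to 0.0643).

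Arid5a, which also binds and stabilises inflammatory mRNAs, measured 6.69, 6.93, 6.69 and 6.64 in KI Treg against 7.00, 6.97, 7.15 and 7.32 in KI Tconv. It measured 6.89, 6.77, 6.91 and 6.89 in WT Treg against 6.94, 7.08, 7.21 and 7.26 in WT Tconv. Both genotypes showed no overlap. The difference was -0.37 (SE 0.0974, adjusted p = 0.00501 by limma) in KI cells and -0.26 (adjusted p = 0.0502) in WT cells, where it missed the threshold. With the number series as a block the WT difference passed (adjusted p = 0.0475 with 3 series and 0.0415 with 2). In the annotation, 2 more probe sets match Arid5a and Tpt1 together and were not used.

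Arid4b, a subunit of SIN3 deacetylase complexes, measured 10.59, 10.47, 10.48 and 10.68 in KI Treg against 10.30, 10.31, 10.34 and 10.30 in KI Tconv. It measured 10.39, 10.49, 10.42 and 10.53 in WT Treg against 10.43, 10.45, 10.45 and 10.44 in WT Tconv. The KI groups were apart and the WT groups overlapped. The difference was 0.24 (SE 0.0514, adjusted p = 0.000944 by limma) in KI cells and 0.02 (adjusted p = 0.828) in WT cells. The other 3 tested probe sets of Arid4b differed from this pattern. They gave 0.35, 0.31 and 0.45 in KI cells and 0.49, 0.47 and 0.40 in WT cells, and of these the last in KI cells and the first and last in WT cells passed. The mean of the probe sets gave 0.31 in KI cells and did not pass (adjusted p = 0.0662). Arid4a, a relative in the same complexes, gave 0.19 and 0.16 and did not pass in either genotype.

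**Figure D3:**
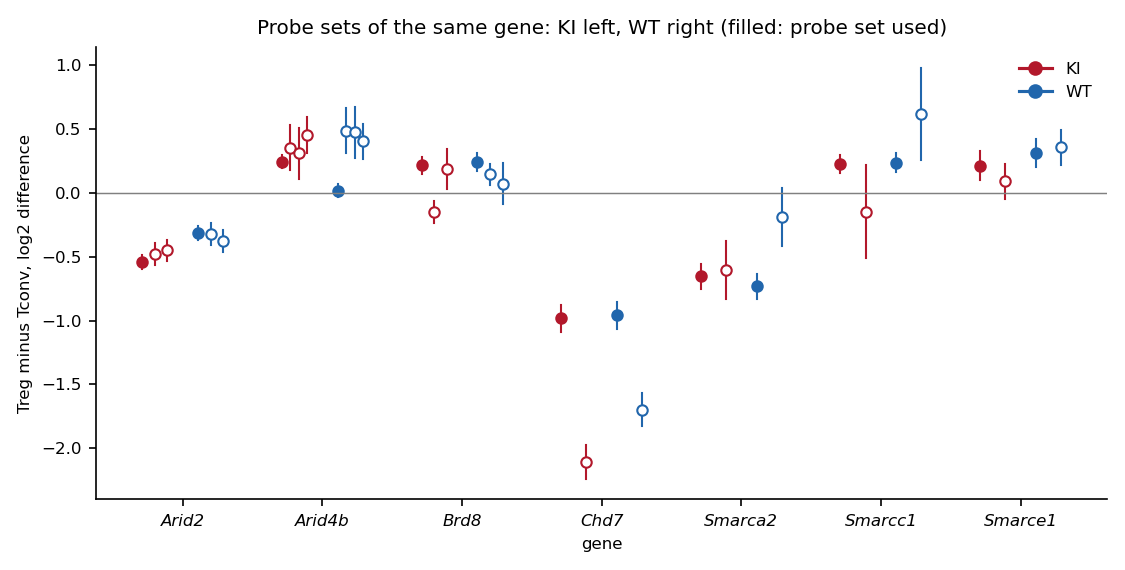
Log2 difference of Tregs minus Tconv for each tested probe set of the 7 called members with more than 1, KI cells left and WT cells right at each gene. Points are limma estimates, lines are 1 SE, and filled points are the probe sets used. All probe sets of Arid2 and Chd7 lie below 0 in both genotypes, and in WT cells the probe set used for Arid4b (0.02) lies apart from the others (0.40 to 0.49).

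The question of the title turns on KI against WT, and here the members showed no call. Between KI Treg and WT Treg, 0 of 35 passed by limma and 2 had an unadjusted p under 0.05, Arid2 and Ino80d, against 16.5% of all genes at that level. Between KI Tconv and WT Tconv, 0 passed and 1 had an unadjusted p under 0.05, Arid4b, against 5.9% of all genes. For the interaction, which sets the genotype difference of Tregs against that of Tconv, 0 passed and 2 had an unadjusted p under 0.05, Arid2 and Arid4b. Of all genes, 0.786% passed the interaction and 8.27% had an unadjusted p under 0.05. No single cell type difference was therefore shown to differ between the genotypes, and those called in KI cells alone (Arid4b, Arid5a, Brd7, Ino80c and Smarcal1) or in WT cells alone (Smarce1) are included in that statement. With the number series as a block, Arid5a was called in WT cells too and Brd3 was called in KI cells alone. The arrays of these 3 comparisons are those of the cell type comparisons too.

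The precision bounds what could be missed. For 32 of 35 members the whole 95% confidence interval of KI Treg minus WT Treg lay within 0.5 (log2) of 0, and for 33 of 35 that of KI Tconv minus WT Tconv. The median distance from an estimate to its 95% bound was 0.206 in either comparison. These bounds leave out the number series, of which the first 2 cannot be told apart from genotype. With the 3 series as a block the median distance was 0.299, and 31 members in Tregs and 34 in Tconv had the whole interval within 0.5. The bounds of Chd4 then reached -1.40 in Tregs and -0.99 in Tconv. In the fit without a block, the interval reached lowest for Chd4 in Tregs, at -0.80, and highest for Chd4 in Tconv, at 0.75. With the 3 series as a block, the highest bound was 0.84, for Chd4 in Tconv. No member differed by 0.5 or more between genotypes, against 3.51% of all genes in Tregs and 1.36% in Tconv. Between cell types, 3 members did so in each genotype, against 19.8% of all genes in KI cells and 16.8% in WT cells. The median absolute difference of the members was 0.213 in KI cells, 0.159 in WT cells, 0.0784 between the genotypes in Tregs and 0.0591 in Tconv. Over all genes it was 0.204, 0.182, 0.104 and 0.0754.

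**Figure D4:**
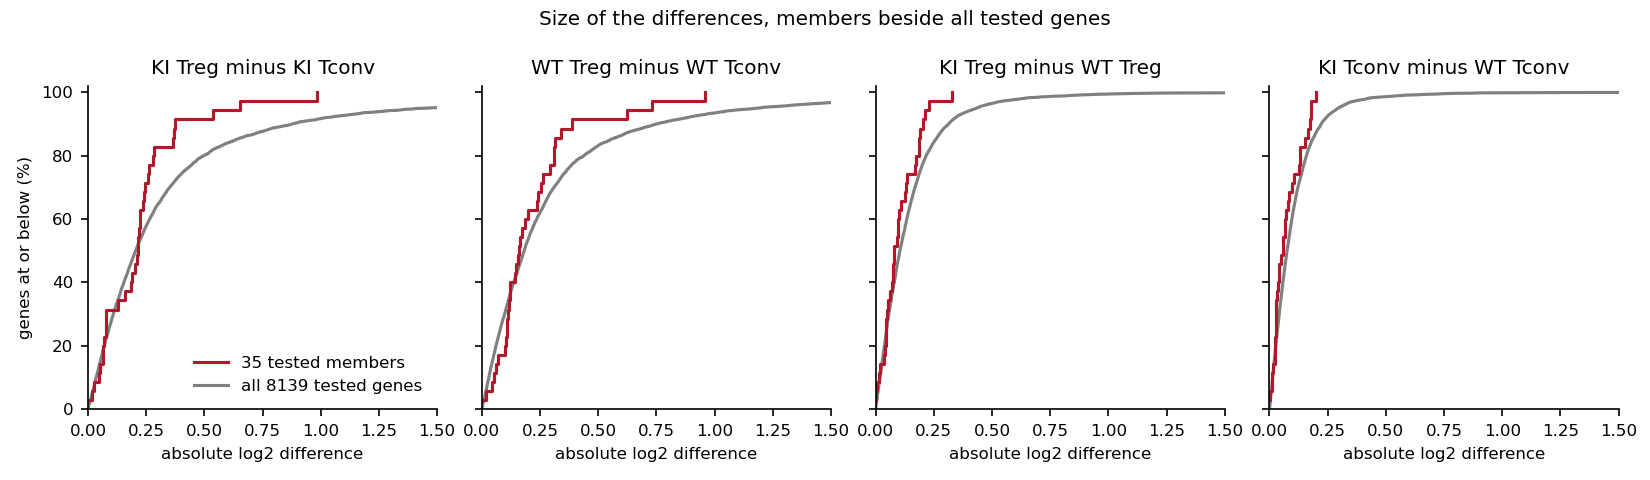
Share of genes (%) with an absolute log2 difference at or below the value on the x axis, for the 35 tested members and all 8139 tested genes, in the 4 comparisons of 2 groups. In each cell type comparison 3 members lie at 0.5 or more, and in the genotype comparisons none does.

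Arid2 came nearest to a genotype call in Tregs. Its 4 KI Treg arrays, given above, all lay below the 4 WT Treg arrays, and it was the 1 member whose groups did not overlap in that comparison, against 8.12% of all genes. The difference was -0.19 (95% confidence interval -0.31 to -0.08, adjusted p = 0.0706 by limma). It was -0.23 within the last number series. With the 3 number series as a block it stayed at -0.19 with a larger SE of 0.0868 (adjusted p = 0.597). Without KI Treg 3, the highest KI Treg array, it was -0.25 and passed (adjusted p = 0.0138). In Tconv it was 0.04, and the interaction was -0.23 (adjusted p = 0.320).

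Ino80d gave -0.33 (95% confidence interval -0.61 to -0.05, adjusted p = 0.217 by limma) between KI Treg and WT Treg. It measured 8.26, 7.83, 8.41 and 8.57 in KI Treg against 8.63, 8.39, 8.70 and 8.66 in WT Treg, with overlap. Replicate 2 of KI Treg was lowest, and within the last number series the difference was -0.09. Smarcal1 gave 0.17 (adjusted p = 0.362) in the same comparison. It passed without arrays 24 to 27 (0.30, adjusted p = 0.0390) and without KI Treg 4 (0.27, adjusted p = 0.0412), while within that series it was -0.23 and with the 3 series as a block -0.0467. In Tconv, Arid4b gave -0.13 (adjusted p = 0.733) and was the 1 member without overlap, against 3.74% of all genes. With the mean of its probe sets or the most variable one the sign turned (0.0838 and 0.132). Chd7 and Smarca2, with the largest cell type differences, differed between KI Treg and WT Treg by 0.02 (95% confidence interval -0.20 to 0.24) and 0.06 (-0.15 to 0.26).

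**Figure D5:**
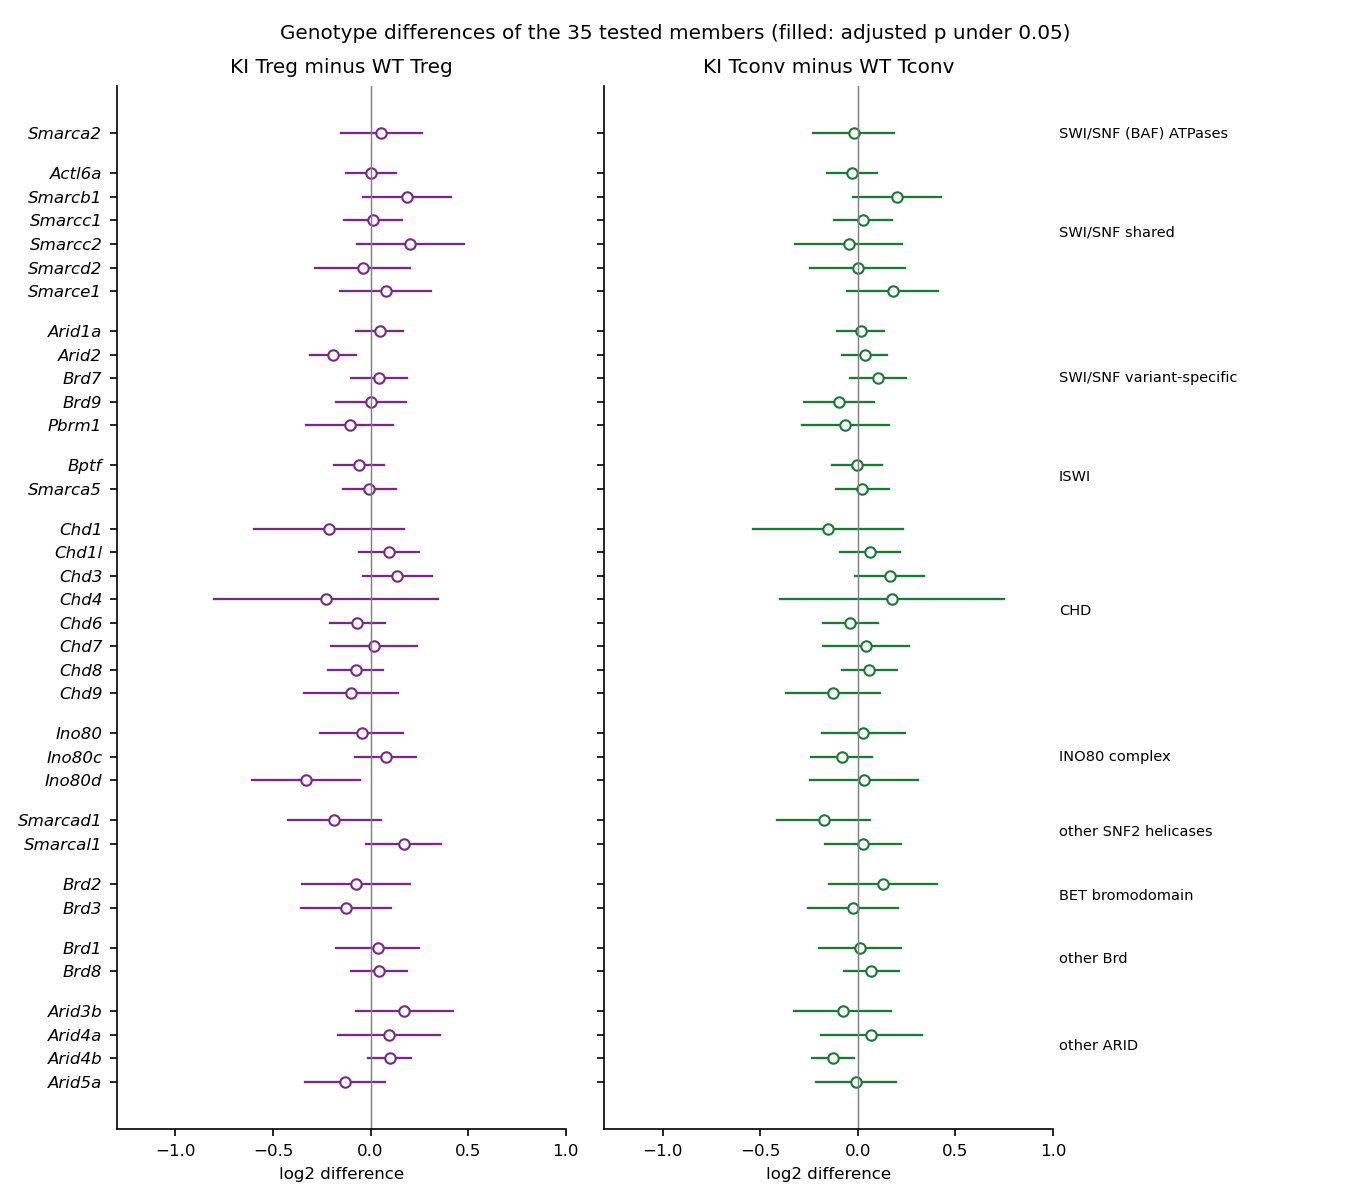
Log2 difference of KI minus WT for the 35 tested members, in Tregs (left panel) and Tconv (right panel), grouped by family. Points are limma estimates, lines are 95% confidence intervals, and no point has an adjusted p under 0.05. Arid2 in Tregs (-0.19) and Arid4b in Tconv (-0.13) have intervals that do not reach 0, as does Ino80d in Tregs (-0.33).

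The 7 members that were not tested were Arid3a, Chd5, Ino80b, Ino80dos, Smarca1, Smarcd1 and Smarcd3. Ino80dos is an antisense RNA of Ino80d and the others encode proteins. Their highest value on any array was 4.83, under the minimum of 5, so no difference was tested for them. The 35 tested members ranged from 6.20 to 11.4, a range that mixes probe sets and gives no order of expression between genes. Chd2 had probe sets shared with Chaserr only and was not analysed here.

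A wider list of 61 remodelling and bromodomain genes named by other rules, such as subunits of NuRD and SWI/SNF, had 52 tested genes. In KI cells 17 of them passed (7 higher, 10 lower), or 32.7%, and in WT cells 15 (5 higher, 10 lower), or 28.8%, against 41.1% and 34.6% of all genes. Bicral, a subunit of non-canonical BAF, rose by 1.18 in KI Treg (adjusted p = 2.90e-07 by limma) and by 1.00 in WT Treg (adjusted p = 3.16e-06). With the probe sets used, none of the 35 members rose as much. Bcl7a, a SWI/SNF subunit, fell by 0.47 in KI Treg (adjusted p = 0.000292) and by 0.35 in WT Treg (adjusted p = 0.00458). Its relative Bcl7c rose by 0.54 in KI Treg (adjusted p = 0.00123) and gave 0.07 in WT cells (adjusted p = 0.668). Hells, an SNF2 helicase needed for DNA methylation, rose by 0.63 in KI Treg (adjusted p = 0.000836), where 6 of 6 proliferation markers were higher, and by 0.37 in WT Treg (adjusted p = 0.0365), where 1 of 6 was. Hdac1, a deacetylase of NuRD, rose by 0.32 in KI Treg (adjusted p = 0.00173) and by 0.44 in WT Treg (adjusted p = 0.000116). The bromodomain gene Baz2b fell by 0.33 in KI Treg (adjusted p = 0.0104) and by 0.52 in WT Treg (adjusted p = 0.000296). Zmynd11, another bromodomain gene, fell by 0.20 in KI Treg (adjusted p = 0.00823) and by 0.25 in WT Treg (adjusted p = 0.00240). The most variable probe set of Zmynd11 gave 0.0695 in WT cells. Between the genotypes 0 of 52 passed by limma in Tregs, with 5 at an unadjusted p under 0.05, and 0 in Tconv, with 3. Over all genes, 2.84% passed in Tregs and 0.135% in Tconv, and 16.5% and 5.9% had an unadjusted p under 0.05.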

How the data were processed

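Per the submitters' processing notes, the deposited log2 values per probe set were made by the authors with RMA in Partek 6.5, with options not stated. RMA corrects background, equalises array distributions and summarises probes. Values of different probe sets are not on 1 scale, and low values understate folds.

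The 45141 probe sets held 28898 with 1 gene. Each of 17097 genes was represented by its probe set with the highest mean over 16 arrays. Genes above a log2 value of 5 on at least 4 arrays were tested (8139). The 4 group means were estimated together from the 16 arrays in limma 3.58.1 (R 4.3.3; eBayes with trend, two-sided) and checked on simulated data. Tables used pandas 2.3.3 and figures matplotlib 3.10.9. Precision is limited by how many arrays each group has.

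The members and lists were chosen with earlier results of these data known. Every member that passed in at least 1 of 5 comparisons is named, and up to 6 per comparison with the largest differences are given in full with every array. Of the wider list, up to 4 per comparison with the lowest p are named. Other members are described by level or range, some with array values chosen after these were seen. Alternatives covered the probe set per gene, the filter, scaling, the variance model, the arrays fitted, the number series and each array left out. Fits of each other probe set of a called member were added after seeing the data.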

Additional observations from a re-analysis of the deposited data

Results flagged for a closer look

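In each group of 4 arrays, the highest and lowest values of the 35 tested members were compared with the rest. An array was listed where its gap to the nearest other array, divided by the range of the group, exceeded Dixon's 95% critical value for 4 samples. This held in 10 of 140 groups, and chance gives about 1 in 20. In KI Treg, Arid2 was highest on replicate 3 at 10.5, Arid5a was highest on replicate 2 at 6.93, and Smarcd2 was lowest on replicate 3 at 9.80. In KI Tconv, replicate 4 was lowest for Smarca2 at 8.90 and for Smarca5 at 10.6. In WT Treg, Actl6a was highest on replicate 1 at 8.85, Brd1 was lowest on replicate 2 at 7.78, and Brd3 was highest on replicate 4 at 7.76. In WT Tconv, Chd1l was lowest on replicate 4 at 8.72 and Smarcb1 was lowest on replicate 1 at 7.30. Leaving out KI Treg 3 took the Arid2 difference between KI Treg and WT Treg past the threshold, as given above. With all arrays and the 3 number series as a block it did not pass (adjusted p = 0.597 by limma).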

How the results depend on the processing

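Of 26 calls of members in the cell type comparisons, 10 passed under every alternative run and with every array left out. For Brd1 and Smarcal1 the most variable probe set lay under the minimum and was not tested, so that alternative gave no value. The number series as a block added 1 call in each genotype, Brd3 in KI cells and Arid5a in WT cells, and ended none. All 10 were falls in Tregs, of 7 members. How many calls over all tested genes pass in this way was not counted. The direction of the 10 is therefore no result about the members. They were Arid2, Chd7 and Chd1l in both genotypes, Arid5a, Brd1 and Smarca2 in KI cells, and Arid3b in WT cells. For Arid3b, Arid5a and Chd1l, with 1 probe set each, the mean and the most variable probe set reused the same values. Those alternatives were thus no separate check of these members. The rises of Arid4b, Brd8, Smarcb1, Smarcc1 and Smarce1 were lost under both, and the WT falls of Brd1 and Smarca2 under 1 each. For Smarcb1 the most variable probe set was the one already used, with unchanged differences of 0.28 and 0.29. Its other probe set, and 1 probe set each of Smarce1 and Arid4b, had group means under 5 and entered the means. These losses are therefore not all disagreements between probe sets. The count of called members in KI cells, 15, was 9 with the most variable probe set per gene, 9 with only the groups compared in the fit, and 10 to 15 with 1 array left out. In WT cells the count of 11 was 6 with the most variable probe set and 8 to 12 with 1 array left out. Without arrays 24 to 27 the counts were 14 and 11. Over all tested genes, the 3343 calls in KI cells were 2890 to 3346 with 1 array left out. The 2818 calls in WT cells were 2443 to 2977. Under the other alternatives the cell type calls of all genes are not given, so these counts show no loss particular to the members. The count of 0 for KI Treg against WT Treg was 1 without arrays 24 to 27 and 0 to 1 with 1 array left out. Over all genes, the 231 calls between KI Treg and WT Treg were 29 with the 3 number series as a block, 422 without arrays 24 to 27, 101 without KI Treg 1 and 571 without KI Treg 4. The 11 between KI Tconv and WT Tconv were 5 with that block, 4 with only the groups compared, 105 without arrays 24 to 27, 7 without KI Tconv 2 and 65 without KI Tconv 4. The 64 interaction calls were 37 without KI Treg 1 and 104 without KI Tconv 4. Signs turned for Smarcal1 in KI cells (-0.11 within arrays 24 to 27) and between KI Treg and WT Treg (-0.0467 with 3 number series as a block, -0.23 within arrays 24 to 27). With the most variable probe set they turned for Smarcc1 in KI cells (-0.15), Arid4b between KI Tconv and WT Tconv (0.13), its interaction (-0.16) and Zmynd11 in WT cells (0.0695). With the mean of probe sets, Arid4b gave 0.0838 and -0.0416 in those 2 comparisons. Single probe sets, added after seeing the data, gave -0.15 for Brd8 and -0.15 for Smarcc1 in KI cells. The cause of these changes was not tested, beyond the values of the probe sets themselves. No paired analysis was possible because the labels give the groups no shared replicate numbers. The series of arrays 24 to 27 holds 1 array per group and gives differences with no test. The interaction was not run with only the groups compared, since it needs all 4.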
